A study of Homo sapiens with 12 samples.

Results

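The comparison described here is that of cells depleted of the interleukin-1 receptor with control cells on day 4 of Ras induction, the time given by the study's design for the onset of the senescence-associated secretory phenotype (SASP). It rests on 4 of the 12 libraries of the series, chosen by their labels: shScr replicates 1 and 2 and shIL1R replicates 1 and 2 at day 4. All libraries were made from poly(A) RNA of IMR90 hTERT cells, a human lung fibroblast line made to divide without limit by telomerase, which here also carry RasERT2, an oncogenic Ras that is switched on by tamoxifen. The control cells (shScr, genotype WT in the labels) expressed a scramble hairpin RNA and the depleted cells (shIL1R, genotype IL1R KD) a hairpin RNA against the receptor. Doxycycline at 0.5 ug/ml induced the hairpins, and the cells were then given ethanol or 200 nM tamoxifen. The labels state these agents for the series as a whole and do not say which library received which. Day 0 is labelled as growing cells, day 4 as cells beginning to senesce and day 10 as senescent cells, in both genotypes with 2 libraries each. The series' design text speaks of a pair of hairpins targeting IL1R, but whether the numbers 1 and 2 stand for these hairpins, for separate cultures or for repeat preparations is not given, so p-values measure only the spread between these libraries, which may be technical.

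Interleukin-1 alpha and beta are cytokines that bind the receptor encoded by IL1R1, which pairs with the accessory protein IL1RAP and signals through MYD88, the IRAK kinases and TRAF6 to the transcription factor NF-kB and to MAP kinases. Senescent fibroblasts secrete a mixture of cytokines, chemokines, proteases and growth factors, the SASP, many of whose genes are NF-kB targets. Membrane-bound interleukin-1 alpha is known as an early signal for this secretion, and interleukin-1 in turn raises the transcription of its own genes.

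Levels are given as normalized counts, the deposited reads per gene divided by a library factor, and each log2 fold change is shIL1R minus shScr on the scale of log2(normalized count + 1), with its standard error. A gene was called when its limma p-value, adjusted after Benjamini and Hochberg over 13924 genes, was below 0.05. The libraries held 24140324 to 30127727 recovered reads. In the library labelled shScr day 4 replicate 2 the ribosomal RNA gene RNA45S5 took 3.41% of the reads, 1.9 times its share in replicate 1, against 1.77% and 1.81% in the shIL1R libraries; the part of this in the results was not tested. The fibroblast markers VIM, COL1A1, COL1A2, PDGFRB, THY1, TBX5 and FOXF1 each stood above 1000 normalized counts in all 4 libraries, while TBX4, also named as a marker of lung fibroblasts, was between 0.947 and 2.21. Markers of leukocytes, epithelium and endothelium that define those types (PTPRC, CD3E, CDH1, NKX2-1, CDH5) were below 2 in each of the 4. Other members of the same lists were high: the epithelial keratins KRT18 and KRT8 stood at 2064 to 2457 and 295.3 to 500.6, the leukocyte list's lysosomal CD68 at 4283 to 4737, and the endothelial receptors TEK and TIE1 at 991.9 to 1782 and 126.2 to 195.0. In these bulk samples, fewer cells expressing a gene and less RNA per cell cannot be told apart.

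IL1R1, the targeted receptor, stood at 1546 and 1423 normalized counts in the shScr libraries of day 4 and at 271.6 and 86.4 in the shIL1R libraries. The depleted cells thus kept 12.1% of the control mean, a log2 fold change of −3.27 ± 0.42 (limma adjusted p = 0.0205). The groups did not overlap, and the 2 shIL1R libraries differed from each other by more than the shScr libraries did. At day 0 the receptor was at 1509 and 1552 in shScr and at 731.0 and 377.8 in shIL1R, and that difference was not called (−1.54, limma adjusted p = 0.281). At day 10 it was at 1580 and 1240 against 295.0 and 279.9 and was called (−2.28, limma adjusted p = 0.0102). The difference of day 4 was not distinguished from that of day 0 (interaction −1.73, limma adjusted p = 0.351). The labels do not say which Ras the fusion carries. At day 4 HRAS was at 29770 and 23750 in shScr and at 19280 and 15520 in shIL1R. It was not called (−0.62 ± 0.17, limma adjusted p = 0.117). All values of the depleted cells lay below those of the control cells, as held for 27.3% of all genes. At day 0 HRAS was at 43040 and 43390 against 41320 and 41400, not called (−0.06, limma adjusted p = 0.964). At day 10 it was at 51790 and 50790 against 37520 and 25280 and was called (−0.74, limma adjusted p = 0.0257).

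At day 4, 39 of the 13924 genes were called, 6 higher in the depleted cells (0.0431% of those tested) and 33 lower (0.237%). The fold was over 2 for 3 of the higher and 15 of the lower genes. In all 39 the libraries of the groups did not overlap, which also held for 25.8% of all genes on the higher side and 27.3% on the lower side. A further 135 genes on the higher side and 174 on the lower side had a limma adjusted p between 0.05 and 0.1, and at an unadjusted p below 0.05 the limma fit had 1173 genes higher (8.42%) and 1367 lower (9.82%). Receptor depletion at the onset of the SASP was thus accompanied by few called genes, of which IL1R1, the cytokines TNFSF15 and LIF, the protease inhibitor TFPI2, the matrix proteoglycan BGN and the transferrin receptor TFRC were lower, and the amino acid synthesis genes ASNS and PHGDH were higher. IL6, CXCL8 and IL1B, well known SASP genes, were not called. Their differences were larger than those of the called genes LIF, TFPI2, BGN and TFRC, and so were their standard errors. IL6 and CXCL8 differed by more than 2-fold between the libraries of each genotype, IL1B only between the shIL1R libraries. In all 3 genes both shIL1R libraries lay below both shScr libraries, as held for 27.3% of all genes. In these SASP genes replicate 2 was below replicate 1 in both genotypes.

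**Figure D1:**
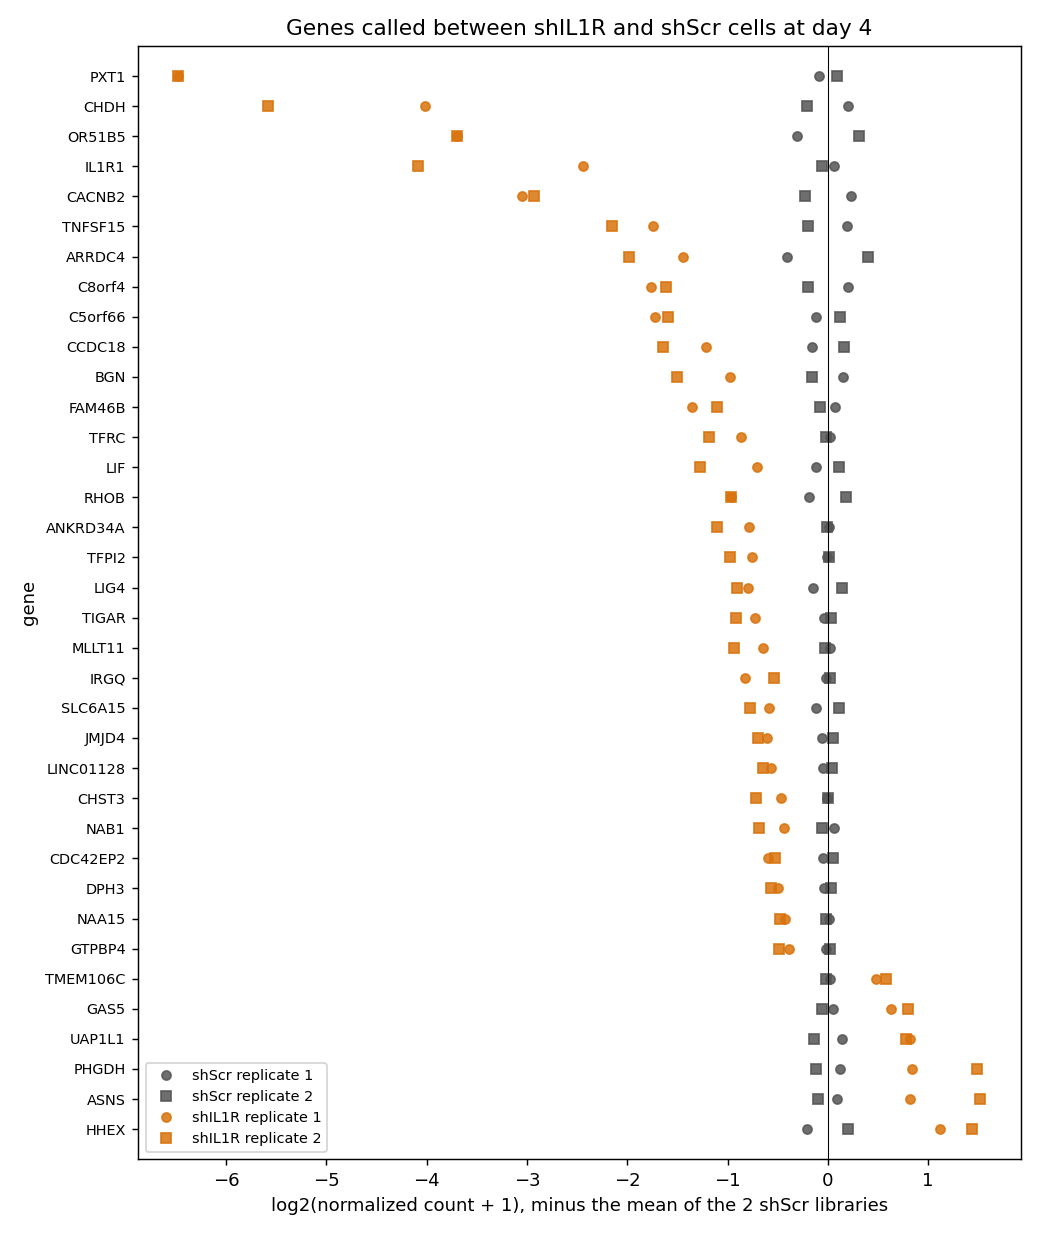
Rows are 36 of the 39 genes called at day 4, with log2(normalized count + 1) in each of the 4 libraries minus the mean of the 2 shScr libraries (horizontal axis). Grey symbols are shScr, orange symbols shIL1R, circles replicate 1 and squares replicate 2. The 30 lower genes shown run from a log2 fold change of −6.48 (PXT1) to −0.43 (GTPBP4) and the 6 higher genes from 0.53 (TMEM106C) to 1.28 (HHEX), with no overlap of the groups in any row.

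The calls draw on the spread shared by all 12 libraries, and their number moved with each library. Fitted with the 4 day 4 libraries alone, limma called 1 gene, PXT1. Without either library of shScr day 4 it called 0 higher and 1 lower (PXT1), without shIL1R day 4 replicate 2 it called 0 higher and 4 lower, and without shIL1R day 4 replicate 1 it called 34 higher and 70 lower. Without either library of shIL1R day 10, the group with the widest spread, 320 or 318 were higher and 418 or 421 lower. Leaving out a library of shScr day 0 gave 0 higher and 2 lower, of shIL1R day 0 gave 0 and 7, and of shScr day 10 gave 0 and 10. On the recovered reads edgeR called 7 higher and 36 lower, which include 6 and 31 of the genes called by limma, and DESeq2 called 203 higher and 266 lower, which include 6 and 29. The direction of each of the 39 genes was the same in all of these fits.

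Among secreted signals, TNFSF15 and LIF were called lower. TNFSF15 encodes TL1A, a cytokine of the tumour necrosis factor family. It was at 3185 and 2429 normalized counts in the shScr libraries of day 4 and at 832.3 and 626.8 in the shIL1R libraries, 26.0% of the control mean (−1.94 ± 0.32, limma adjusted p = 0.0434). The lowest control library was therefore well above the highest depleted one. At day 0 the order of the genotypes was the opposite, with 40.4 and 37.5 in shScr and 79.9 and 88.6 in shIL1R, a difference that was not called (1.09, limma adjusted p = 0.314). By day 10 the gene was at 14230 and 17970 in shScr and at 3191 and 1333 in shIL1R (−2.95, limma adjusted p = 0.00106). The difference of day 4 from day 0 was −3.04 and missed the threshold (limma adjusted p = 0.0601).

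LIF, a cytokine of the interleukin-6 family, was at 2247 and 2629 in shScr and at 1492 and 1001 in shIL1R at day 4 (−0.99 ± 0.17, limma adjusted p = 0.0464). It too began in the other order, with 516.3 and 432.3 in shScr and 687.0 and 668.8 in shIL1R at day 0, not called (0.52, limma adjusted p = 0.374). At day 10 it was at 10840 and 12570 against 2908 and 2733 (−2.05, limma adjusted p = 0.000135). The call of LIF held in 3 of the 12 fits that left out a library; the adjusted p was 0.359 without shIL1R day 4 replicate 2 (−0.70) and 0.111 and 0.295 without either shScr day 4 library. TNFSF15 and BGN were likewise called in 3 of the 12, and TNFSF15 had an adjusted p of 0.427 without shIL1R day 4 replicate 2 and of 0.148 and 0.237 without either shScr day 4 library.

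TFPI2, a secreted Kunitz-type inhibitor of serine proteases, was at 31030 and 31380 in shScr and at 18510 and 15910 in shIL1R at day 4. The control libraries lay very close together and both depleted libraries were well below them (−0.86 ± 0.10, limma adjusted p = 0.0161). It was at 4434 and 4873 against 5265 and 5884 at day 0. The genotype difference of day 4 was called apart from that of day 0 (interaction −1.12, limma adjusted p = 0.042). BGN, biglycan, a small proteoglycan of the matrix, was at 1698 and 1368 in shScr and at 773.7 and 537.1 in shIL1R (−1.24 ± 0.21, limma adjusted p = 0.0464). The day 0 levels of BGN, 605.4 and 504.9 against 539.7 and 436.4, overlapped between the genotypes, and its day 10 levels, 3570 and 3331 against 1957 and 1342, did not.

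The promoters of the called genes were searched for the letters of motifs of factors named in SASP control, to show the sequence beside these values. RefSeq promoters of GRCh38.p14, from 250 bases before to 50 after the annotated start, were matched by symbol for 10996 of the 13924 genes and for 31 of the 39 called; the expression values were counted on hg19, and only the sequences come from GRCh38.p14. Both strands were searched for AP-1 (TGANTCA), C/EBP (TTGCNNAA), E2F (TTTNGCGC), NF-kB by its consensus and, added after the called genes were seen, the C/EBP-ATF response element (TGATGNAA). An AP-1 match was found in 6 of the 26 promoters of lower genes (23.1%: PXT1, TNFSF15, ARRDC4, FAM46B, TFPI2 and IRGQ) and in 4.84% of all promoters searched. An NF-kB match was found in 3 of the 26 (11.5%: FAM46B, TFPI2 and GTPBP4) against 6.49% of all, a C/EBP match in 2 (7.69%) against 6.88%, and an E2F match in 1 (3.85%) against 2.92%. A match describes letters and not a bound site, and these counts carry no test. The 250 bases before the start are printed for TNFSF15, the secreted gene with the largest called difference, and for TFPI2 and FAM46B, which hold both an AP-1 and an NF-kB match; capitals mark the matches. The TNFSF15 stretch lies at chr9:114792531-114792780, minus strand, with a C/EBP match at −171 and an AP-1 match at −120 from the start. That of TFPI2 lies at chr7:93890754-93891003, minus strand, with NF-kB at −152 and AP-1 at −87, and that of FAM46B at chr1:27012851-27013100, minus strand, with NF-kB at −153 and AP-1 at −133. In none of the 3 do matches of different motifs overlap.
TNFSF15: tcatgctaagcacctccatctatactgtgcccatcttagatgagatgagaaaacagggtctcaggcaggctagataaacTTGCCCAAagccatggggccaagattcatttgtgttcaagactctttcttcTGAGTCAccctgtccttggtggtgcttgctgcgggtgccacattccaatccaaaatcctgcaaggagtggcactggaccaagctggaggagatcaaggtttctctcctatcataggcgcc
TFPI2: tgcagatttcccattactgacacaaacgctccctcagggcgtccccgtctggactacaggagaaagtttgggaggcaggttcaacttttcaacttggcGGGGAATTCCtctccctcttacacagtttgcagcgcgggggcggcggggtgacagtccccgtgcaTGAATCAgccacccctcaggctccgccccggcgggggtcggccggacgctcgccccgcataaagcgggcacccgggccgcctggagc
FAM46B: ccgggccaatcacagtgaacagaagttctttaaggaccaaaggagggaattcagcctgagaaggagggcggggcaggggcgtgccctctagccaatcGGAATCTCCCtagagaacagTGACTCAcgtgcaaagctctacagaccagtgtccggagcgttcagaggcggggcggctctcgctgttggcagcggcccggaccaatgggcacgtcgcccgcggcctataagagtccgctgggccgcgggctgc

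Of the genes whose promoters are shown or named for an AP-1 match, FAM46B, a member of the FAM46 family of poly(A) polymerases, was at 143.6 and 129.7 in shScr and at 52.8 and 63.1 in shIL1R at day 4 (−1.23 ± 0.19, limma adjusted p = 0.0401). FAM46B was already lower in each shIL1R library at day 0, at 345.4 and 302.9 against 234.4 and 216.9, not called (−0.52, limma adjusted p = 0.47). ARRDC4, an alpha-arrestin, was at 379.5 and 664.4 against 183.6 and 126.2 at day 4 (−1.71 ± 0.30, limma adjusted p = 0.0479). The control libraries of ARRDC4 lay well apart, both above the depleted ones, and at day 10 ARRDC4 was not called (−0.52, limma adjusted p = 0.281). IRGQ, a GTPase-like protein, was at 1142 and 1178 against 653.5 and 797.3 (−0.68 ± 0.12, limma adjusted p = 0.0479).

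The interleukin-1 ligands IL1A and IL1B, which act through the targeted receptor, were not called. IL1B was at 13020 and 9856 normalized counts in shScr and at 5552 and 1989 in shIL1R at day 4 (−1.77 ± 0.53, limma adjusted p = 0.134). IL1A was at 1158 and 843.3 against 559.7 and 266.9 (−1.35 ± 0.54, limma adjusted p = 0.225). In both genes the depleted libraries lay below the control libraries and differed from each other by more than 2-fold. At day 10 both were called lower, IL1B by −2.99 (limma adjusted p = 0.00843) and IL1A by −2.80 (limma adjusted p = 0.0125), and no difference between day 10 and day 4 was called for them. IL1RAP, the accessory chain, was at 718.2 and 673.0 against 716.0 and 902.5 (0.21 ± 0.15, limma adjusted p = 0.500). Of the 10 interleukin-1 ligands and receptors tested, IL1R1 was the only one called, beside 0.237% called lower over all genes. At an unadjusted limma p below 0.05, 4 were lower and 1 higher, beside 9.82% and 8.42% over all genes. The median log2 fold change of the 10 was −0.84, beside −0.00055 over all genes. That median was −0.30 with a pseudocount of 5, −0.54 without shIL1R day 4 replicate 2, −1.27 with edgeR and −1.36 with DESeq2.

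Of 15 signal transducers below the receptor limma and edgeR called 0 and DESeq2 2. Their median was 0.02 (−0.088 without shScr day 4 replicate 2). At an unadjusted limma p below 0.05, 3 were higher and 2 lower, beside 8.42% higher and 9.82% lower over all genes. Over all 13924 genes DESeq2 called 203 higher and 266 lower. MYD88 was at 1168 and 1295 against 1077 and 885.9, and TRAF6 at 704.9 and 607.7 against 690.6 and 584.7. IRAK2, a kinase of the receptor complex, was at 1553 and 983.4 against 987.6 and 520.5 (−0.78 ± 0.31, limma adjusted p = 0.226), so that the groups overlapped. MAP3K8, a kinase that links interleukin-1 signalling to ERK, was at 45.7 and 32.2 against 14.7 and 15.5 (−1.29 ± 0.26, limma adjusted p = 0.066).

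Of 23 NF-kB subunits and feedback genes and 23 NF-kB targets limma and edgeR called 0 and DESeq2 1 each. At an unadjusted limma p below 0.05, 8 and 6 members were lower and 0 higher, beside 9.82% lower and 8.42% higher over all genes. The medians were −0.33 and −0.25, and 19 of the 23 subunit and feedback genes had a negative log2 fold change, against 6978 of the 13924 genes. Leaving out 1 library moved these medians, the first to −0.18 without shIL1R day 4 replicate 2 and the second to −0.41 without replicate 1. RELA, the main transactivating subunit, was at 3462 and 3439 against 3449 and 3295 (−0.03 ± 0.09, limma adjusted p = 0.874). ZC3H12A, an RNase induced by interleukin-1, was at 376.7 and 346.4 against 192.4 and 165.0 (−1.02 ± 0.21, limma adjusted p = 0.0717). ICAM1, an adhesion molecule and a common NF-kB readout, was at 5128 and 3530 against 1775 and 932.4 (−1.72 ± 0.47, limma adjusted p = 0.116). TNFAIP3, which ends NF-kB signalling, was at 1896 and 608.6 against 865.5 and 258.0 (−1.18 ± 0.68, limma adjusted p = 0.385), and the groups overlapped. In TNFAIP3, NFKBIA, IL1B, IL6, CXCL8 and ICAM1 replicate 2 was below replicate 1 in both genotypes at day 4.

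The CXC chemokines, attractants of neutrophils and lymphocytes, were not called at day 4. CXCL8, the neutrophil attractant interleukin-8, was at 2426 and 1099 against 822.5 and 375.4 (−1.55 ± 0.66, limma adjusted p = 0.25). CXCL1 was at 67.5 and 50.2 against 17.6 and 11.1 (−1.98 ± 0.53, limma adjusted p = 0.112). CXCL5 was at 27.6 and 27.4 against 5.86 and 9.97 (−1.72 ± 0.43, limma adjusted p = 0.0956). Of the 10 CXC and CX3C chemokines tested limma, edgeR and DESeq2 called 0. At an unadjusted limma p below 0.05, 3 were lower, beside 9.82% of all genes. The median of the 10 was −0.74 at day 4, 0.50 at day 0 and −3.25 at day 10. Without shScr day 4 replicate 1 the day 4 median was −0.27. CXCL5 is the one of them whose difference at day 10 (1972 and 3864 against 39.6 and 14.7) was called apart from that of day 4 (−5.06, limma adjusted p = 0.0168).

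IL6, the cytokine most often used to follow the SASP, was at 374.8 and 165.6 against 124.1 and 57.6 (−1.55 ± 0.43, limma adjusted p = 0.119). CSF3 was at 79.9 and 61.5 against 10.7 and 6.64 (−2.91 ± 0.66, limma adjusted p = 0.0821). Both missed the threshold although no depleted library reached a control library, which also held for 27.3% of all genes on the lower side. CCL2 was at 43.8 and 72.9 against 61.5 and 116.3 (0.57 ± 0.61, limma adjusted p = 0.659), and its libraries overlapped. Over the 19 cytokines and colony-stimulating factors tested, 2 were called lower (TNFSF15 and LIF) and 0 higher, beside 0.237% and 0.0431% over all genes. At an unadjusted limma p below 0.05, 4 were lower and 2 higher, beside 9.82% and 8.42% over all genes. The median of the 19 was −0.05. Leaving out each day 4 library in turn, this median lay between −0.22 and 0.045.

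**Figure D2:**
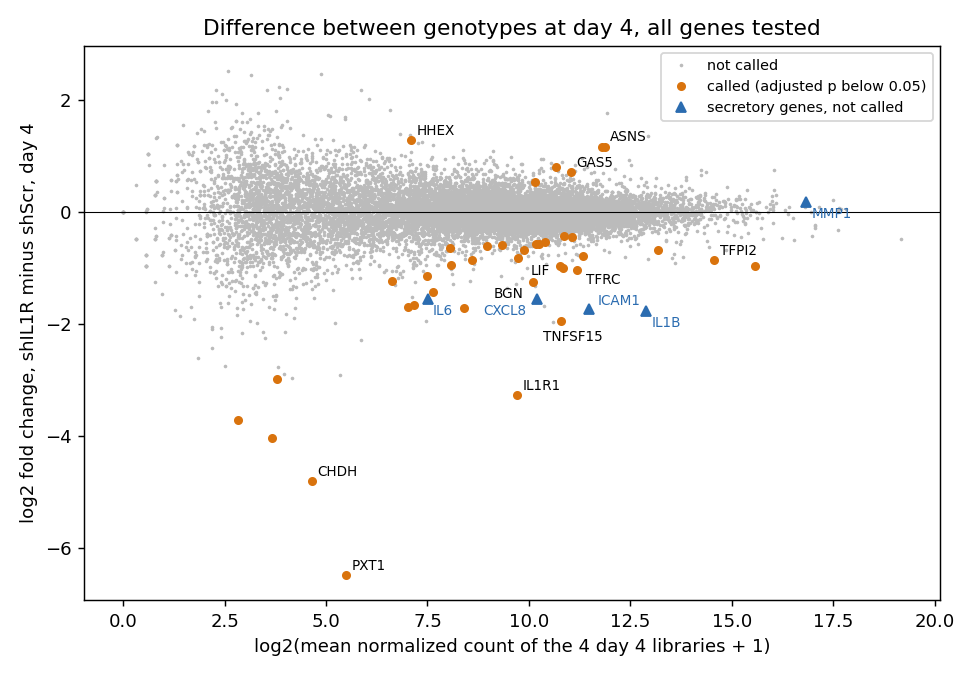
Log2 fold change of shIL1R against shScr at day 4 (vertical axis) by log2 of the mean normalized count of the 4 libraries plus 1 (horizontal axis) for 13924 genes. Grey points are not called, orange circles are the 39 called genes and blue triangles are SASP genes that were not called. IL6, CXCL8, ICAM1 and IL1B lie at −1.55 to −1.77, lower than the called genes LIF (−0.99) and TFPI2 (−0.86), and MMP1 lies at 0.18.

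Of 16 matrix metalloproteinases and TIMPs, SASP proteases and their inhibitors, limma and edgeR called 0 and DESeq2 1. Their median was 0.06 (−0.041 without shIL1R day 4 replicate 1). At an unadjusted limma p below 0.05, 3 were higher and 2 lower, beside 8.42% higher and 9.82% lower over all genes. MMP1, interstitial collagenase, was at 116400 and 102100 against 112700 and 135700 (0.18 ± 0.18, limma adjusted p = 0.624), and its libraries overlapped. TIMP1 was at 65448 and 65038 against 49523 and 44176 (−0.48 ± 0.10, limma adjusted p = 0.0717). Among 30 collagens and matrix genes BGN was the only one called, beside 0.237% called lower over all genes. At an unadjusted limma p below 0.05, 4 of the 30 were lower and 3 higher, beside 9.82% and 8.42% over all genes.

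Called lower genes outside secretion included TFRC and RHOB. TFRC, the receptor that takes up transferrin-bound iron, was at 3178 and 3103 in shScr and at 1719 and 1378 in shIL1R at day 4 (−1.03 ± 0.10, limma adjusted p = 0.00387). Its control libraries lay within a few percent of each other, and its call was lost in 2 of the 12 fits that left out a library, those without a shScr day 4 library (adjusted p = 0.0696 and 0.0791). TFRC was at 2392 and 2359 against 2294 and 2501 at day 0, overlapping between genotypes, and the change in the difference from day 0 to day 4 was called (−1.04, limma adjusted p = 0.0496). It was at 5384 and 5473 against 2127 and 2237 at day 10.

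RHOB, a small GTPase, was at 2023 and 2620 in shScr and at 1175 and 1175 in shIL1R at day 4 (−0.97 ± 0.14, limma adjusted p = 0.0279). It was not called at day 10 (−0.12, limma adjusted p = 0.604), and the difference between the days was itself not called (0.85, limma adjusted p = 0.148).

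TIGAR, a p53-induced fructose bisphosphatase that lowers glycolytic flux, was at 1055 and 1106 in shScr and at 654.5 and 570.3 in shIL1R (−0.82 ± 0.11, limma adjusted p = 0.0216). It was the only called gene of 25 p53 targets, beside 0.237% called lower over all genes. At an unadjusted limma p below 0.05, 11 of the 25 were lower and 0 higher, beside 9.82% and 8.42% over all genes. Of the 25, 23 had a negative log2 fold change (median −0.30, and −0.15 without shIL1R day 4 replicate 2), against 6978 of the 13924 genes. RRM2B, the p53-induced ribonucleotide reductase subunit, was at 2838 and 2868 against 1889 and 1539 (−0.74 ± 0.15, limma adjusted p = 0.066). CDKN1A, which encodes the cell cycle inhibitor p21, was at 35900 and 36090 against 28390 and 18070 (−0.67 ± 0.24, limma adjusted p = 0.186). LIG4, the ligase of non-homologous end joining and no member of that list, was called, at 445.2 and 543.3 against 282.3 and 261.4 (−0.85 ± 0.15, limma adjusted p = 0.0464).

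The remaining lower genes with a control mean of at least 50 covered several functions. C8orf4, also named TCIM, was at 224.5 and 169.4 against 56.7 and 63.1 (−1.69 ± 0.25, limma adjusted p = 0.035). CCDC18 was at 256.8 and 319.9 against 123.1 and 90.8 (−1.43 ± 0.24, limma adjusted p = 0.0462). In both of these, either control library was more than 2-fold above either depleted library. The non-coding RNA C5orf66 was at 197.9 and 234.7 against 64.5 and 70.9 (−1.66 ± 0.23, limma adjusted p = 0.0259). It was already lower in each shIL1R library at day 0, at 248.1 and 213.6 against 128.4 and 119.6, not called (−0.89, limma adjusted p = 0.246). ANKRD34A and MLLT11 were lower at day 4 by −0.95 and −0.79, with limma adjusted p of 0.0401 and 0.0386.

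Among the lower genes outside the rule for naming, 12 are named here after their values were seen. SLC6A15, JMJD4, LINC01128, CHST3, NAB1, CDC42EP2, DPH3, NAA15 and GTPBP4 had log2 fold changes from −0.68 to −0.43, and CACNB2 one of −2.99. The other 2, CHDH and OR51B5, and PXT1 stayed below 5 normalized counts in every shIL1R library of every day. PXT1, a gene known from testis, was at 82.8 and 93.7 in shScr and at 0 in both shIL1R libraries of day 4. Set against a floor of 3 reads per library (3.13 normalized counts), it was at least 28.2-fold lower (fitted −6.48 ± 0.40, limma adjusted p = 7.274e-05). At day 0 it was already at 79.9 and 91.0 against 0.898 and 0.861, and at day 10 it was at 88.5 and 86.1 against 0 and 1.13.

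CHDH, choline dehydrogenase, was at 54.2 and 40.7 against 1.95 and 0 at day 4, and at 46.9 and 40.9 against 1.80 and 0 at day 0. PXT1 and CHDH were thus near absent from the depleted cells at day 0 as well as at day 4. Whether the shScr and shIL1R lines differ beyond the hairpin cannot be told apart from an effect of the hairpin in these genes. Both were also called at day 0 in the same direction (limma adjusted p = 0.000389 and 0.0215). For OR51B5, at 9.51 and 15.1 against 0 and 0, the call at day 0 was missed (limma adjusted p = 0.0543).

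The 6 higher genes include HHEX, a homeobox transcription factor, at 67.5 and 89.9 in shScr and at 170.9 and 212.6 in shIL1R (1.28 ± 0.21, limma adjusted p = 0.0433). ASNS, asparagine synthetase, was at 2396 and 2106 against 3956 and 6453 (1.17 ± 0.18, limma adjusted p = 0.0401). PHGDH, the first enzyme of serine synthesis, was at 2366 and 2011 against 3898 and 6101 (1.16 ± 0.18, limma adjusted p = 0.0401). In ASNS and PHGDH, both targets of the amino acid response factor ATF4, shIL1R replicate 2 stood well above replicate 1, and without replicate 2 the log2 fold changes were 0.82 and 0.84 and no longer called (limma adjusted p = 0.19 and 0.237).

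Of 18 genes of the ATF4 amino acid response, ASNS and PHGDH were called higher and 0 lower, beside 0.0431% and 0.237% over all genes. At an unadjusted limma p below 0.05, 8 were higher and 0 lower, beside 8.42% and 9.82% over all genes. Of the 18, 17 had a positive log2 fold change, against 6938 of the 13924 genes, and the median was 0.45. The median was about the same at day 0 (0.40), where 0 members were called by limma, and was −0.10 at day 10. Without shIL1R day 4 replicate 2 the day 4 median was 0.25, and without replicate 1 it was 0.75. ASNS was already at 2153 and 1951 against 3003 and 3356 at day 0, not called (0.63, limma adjusted p = 0.314), and no difference between days was called for ASNS or PHGDH. PSAT1, the next enzyme of serine synthesis, was at 1822 and 1557 against 2470 and 4353 (0.96 ± 0.22, limma adjusted p = 0.084). DDIT3, the stress factor CHOP, was at 3043 and 807.4 against 3428 and 8297 (1.77 ± 0.68, limma adjusted p = 0.211), and shIL1R replicate 2 stood far above the other 3 libraries. Chaperones of the endoplasmic reticulum moved with the same library: the summed level of 17 was 229290 and 174810 in shScr and 194730 and 344940 in shIL1R. Of these 17, limma, edgeR and DESeq2 called 0. At an unadjusted limma p below 0.05 there were 0, beside 8.42% higher and 9.82% lower over all genes. HSPA5, the main one, was at 59684 and 34243 against 44589 and 128517. The part of this library in the ATF4 genes was tested only by leaving it out, as above.

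The promoters of ASNS and PHGDH are printed because they are the 2 called genes of this response. That of ASNS (chr7:97872409-97872658, minus strand) holds a C/EBP-ATF response element at −68, a motif through which ATF4 is known to act, found in 1.66% of all promoters searched, in 1 of the 5 promoters of higher genes and in 0 of the 26 of lower genes. The response element was added to the search after the called genes were seen, and its counts carry no test. The promoter of PHGDH (chr1:119711684-119711933, plus strand) holds a C/EBP match at −131. Capitals mark these letters in the 250 bases before the start, which hold no other match.
ASNS: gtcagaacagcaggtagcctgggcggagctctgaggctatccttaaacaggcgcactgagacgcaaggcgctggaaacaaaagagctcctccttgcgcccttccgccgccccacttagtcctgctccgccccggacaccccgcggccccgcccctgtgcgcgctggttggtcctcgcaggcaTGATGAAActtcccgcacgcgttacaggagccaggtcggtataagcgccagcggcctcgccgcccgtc
PHGDH: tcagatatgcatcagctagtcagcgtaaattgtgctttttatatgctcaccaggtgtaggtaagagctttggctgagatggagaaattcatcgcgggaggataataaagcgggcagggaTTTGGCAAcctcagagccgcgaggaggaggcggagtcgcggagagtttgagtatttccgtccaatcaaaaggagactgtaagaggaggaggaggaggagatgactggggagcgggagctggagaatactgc

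The other 3 higher genes were UAP1L1, GAS5 and TMEM106C. GAS5, a non-coding host gene of small nucleolar RNAs, was at 1648 and 1529 in shScr and at 2458 and 2755 in shIL1R (0.71 ± 0.12, limma adjusted p = 0.0464). TMEM106C, a transmembrane protein, was at 938.9 and 910.5 against 1288 and 1385 (0.53 ± 0.08, limma adjusted p = 0.0401). UAP1L1, related to an enzyme of nucleotide sugar synthesis, was at 1297 and 1067 against 2077 and 2021 (0.80 ± 0.12, limma adjusted p = 0.0391). Both GAS5 and TMEM106C were also called higher at day 10, by 0.82 and 0.48, and at day 0 neither was.

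Genes of the cell cycle and of the ribosome had positive but small differences without calls. Of 46 cell cycle genes 41 had a positive log2 fold change, with a median of 0.35. Limma and edgeR called 0 of them and DESeq2 3. At an unadjusted limma p below 0.05, 7 were higher, beside 8.42% of all genes. MCM7, a subunit of the replicative helicase, was at 2212 and 2087 against 2840 and 3071 (0.46 ± 0.10, limma adjusted p = 0.076), and HMGB2, a chromatin protein lost in senescence, at 909.4 and 779.0 against 1226 and 1506 (0.69 ± 0.13, limma adjusted p = 0.066). LMNB1, the lamin whose loss marks senescence, was at 279.7 and 360.6 against 283.3 and 413.1 (0.11 ± 0.41, limma adjusted p = 0.919). All 35 ribosomal protein genes tested had a positive log2 fold change, from 0.08 to 0.33. Limma, edgeR and DESeq2 called 0, and 21 had an unadjusted limma p below 0.05, beside 8.42% of all genes on the higher side. The median of all genes was −0.00055, and 0.0023 after TMM rescaling, under which the median of these genes was 0.22.

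In all, 5 of the 43 gene lists held a called gene. Called were 7 of the 708 list genes, including the target IL1R1, beside 39 of the 13924 genes tested. The lists were chosen with earlier results of these data known. Clustered histone genes had a median of −0.66 with 9 of 10 negative. Limma and edgeR called 0 and DESeq2 1, and 7 were lower at an unadjusted limma p below 0.05, beside 9.82% of all genes. Some of the histone genes have near-identical copies, so their counts are uncertain. Of 21 tested members of the epithelial, endothelial, leukocyte, and neural and muscle marker lists, 6 had an unadjusted limma p below 0.05. Over all genes the shares were 8.42% higher and 9.82% lower. The marker lists held 0 genes called by limma or edgeR and 1 (epithelial) by DESeq2. Their summed levels at day 4 overlapped between genotypes for the leukocyte list (4718 and 4327 against 4780 and 4359) and the epithelial list (2904 and 2559 against 2879 and 3153). They did not overlap for the endothelial list (1599 and 1243 against 1653 and 2009) and for the neural and muscle list (26457 and 27049 against 23463 and 19782); TEK leads the former and NES the latter, CDH5 and ERG were 0 in all 4 libraries, and the part of these genes in the results was not tested.

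**Figure D3:**
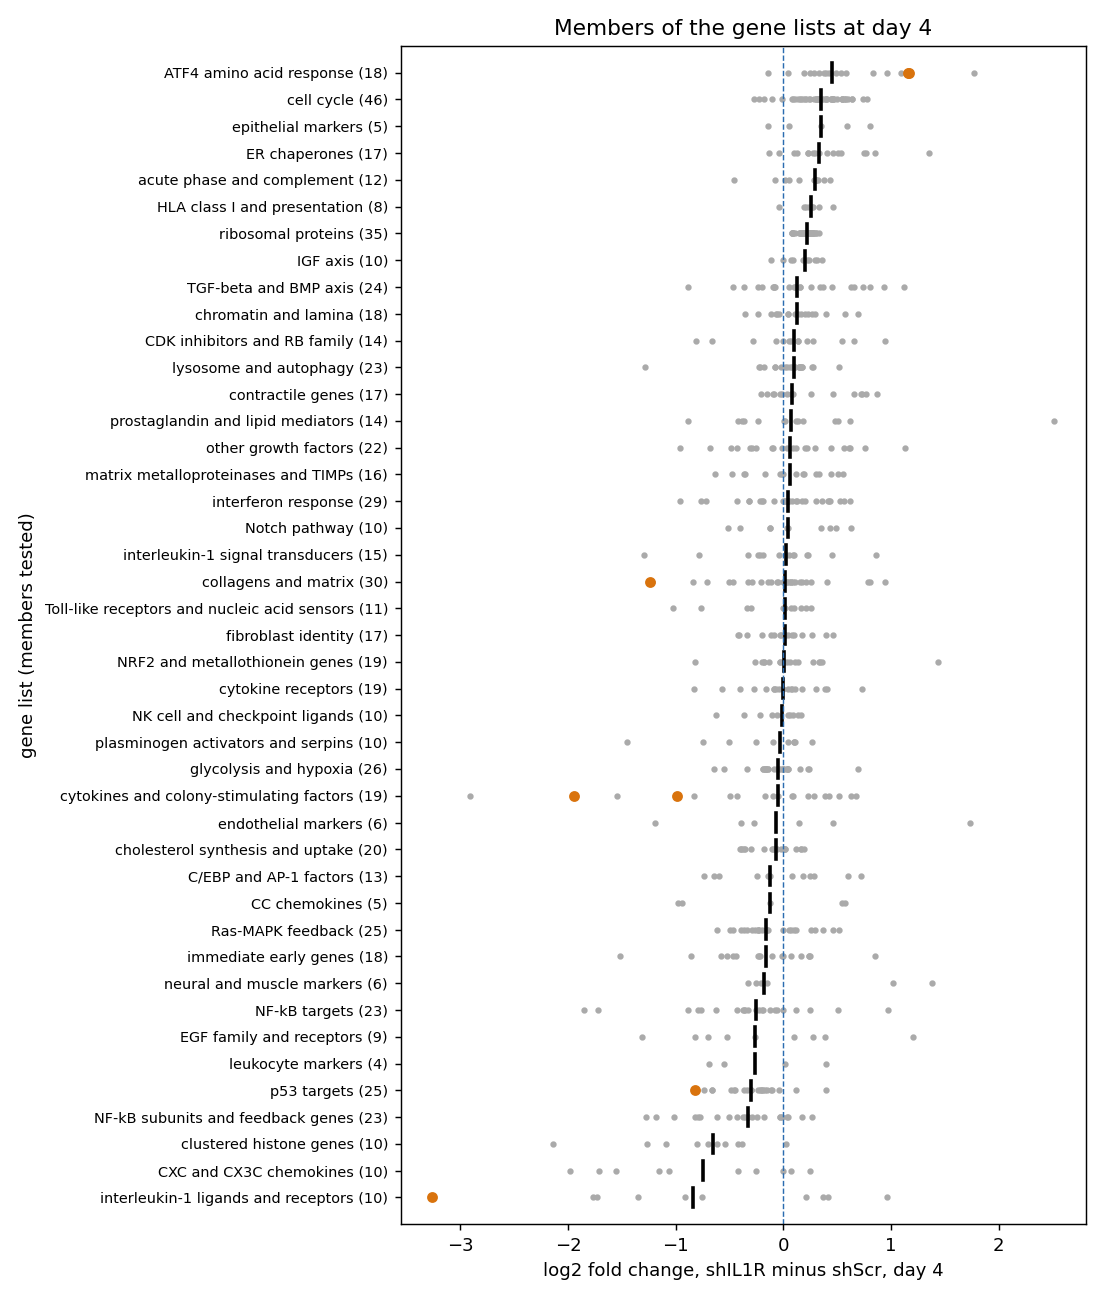
Log2 fold change at day 4 of each tested member (points) of 43 gene lists (rows, with the number tested), sorted by the median (black bar). Orange points are called genes, and the dashed line is the median of all genes, −0.00055. With the pseudocount of 1 used here the medians run from −0.84 (interleukin-1 ligands and receptors) to 0.45 (ATF4 amino acid response), and 7 genes in all are called.

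The same genotypes at the other days share no library with day 4. The days do share each gene's spread, estimated over all 12 libraries, so overlap between their calls is not independent. At day 0, 9 genes were called (0.0646% of those tested), and 3 of the 39 day 4 genes were among them, 7.69% of the 39 and 33.3% of the 9. At day 10, 1283 genes were called (9.21%). Of the 39 genes, 26 were called at day 10 in the same direction, 66.7% of the 39 and 2.03% of the 1283. All 33 lower genes had a negative log2 fold change at day 10 and 19 had one at day 0, while the 6 higher genes were all positive at day 10 and 3 of them at day 0. Across the 13924 genes Pearson's r of the log2 fold changes was 0.232 between day 4 and day 0 and 0.396 between day 4 and day 10; genes are not independent replicates, and these values are descriptions.

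**Figure D4:**
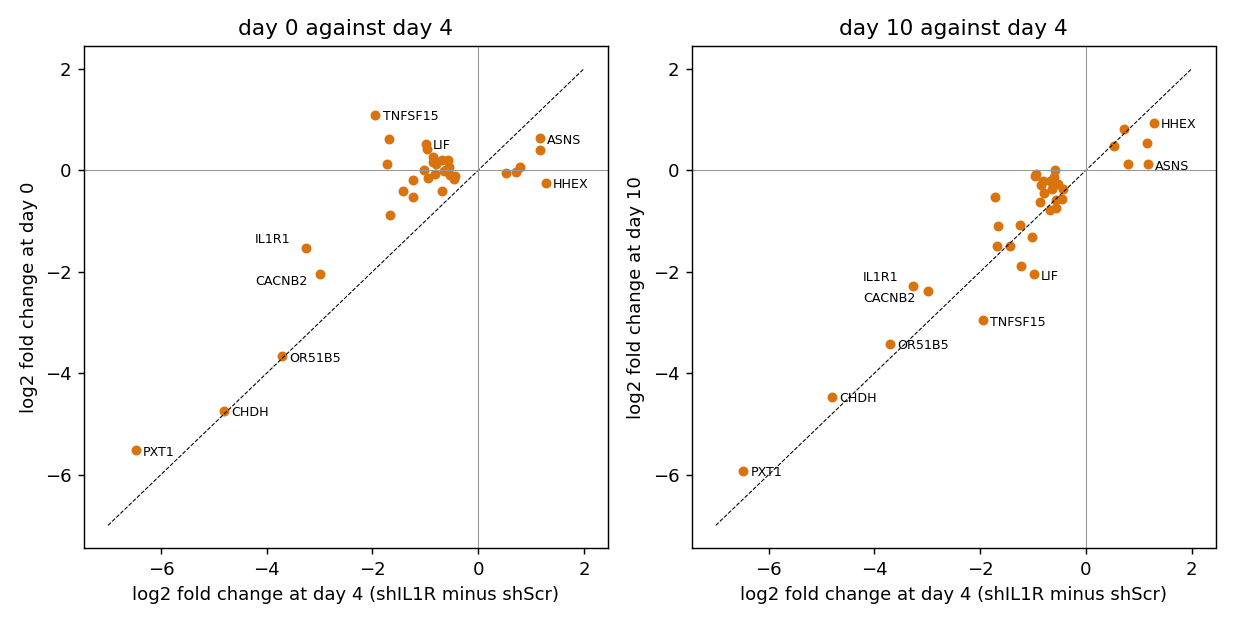
Log2 fold change (shIL1R minus shScr) of 36 of the 39 genes at day 0 (left) and at day 10 (right), each against day 4 on the horizontal axis, with the line of equal values dashed. PXT1, CHDH and OR51B5 lie near the line at both days, TNFSF15 goes from 1.09 at day 0 to −2.95 at day 10, and the 30 lower genes shown are all below 0 at day 10.

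The difference between genotypes itself was called apart between day 4 and day 0 in 4 genes by limma (0.0287% of those tested). All of them were shifted downward. Besides TFRC and TFPI2 they were DPP4, a cell surface peptidase found on senescent fibroblasts, and SLC16A6, a monocarboxylate transporter. Without a filter 0 of these calls remained. DPP4 was at 455.7 and 473.2 in shScr and at 876.5 and 1158 in shIL1R at day 0, where it was called higher (1.12, limma adjusted p = 0.0101), and at 1489 and 1507 against 1020 and 1220 at day 4, not called (−0.42, limma adjusted p = 0.14). The shift was −1.54 (limma adjusted p = 0.0319). SLC16A6 was at 236.1 and 252.0 against 399.6 and 476.0 at day 0 and at 5492 and 5758 against 4473 and 4065 at day 4, a shift of −1.23 (limma adjusted p = 0.0319). In both genes the depleted cells were thus above the control cells at day 0 and below them at day 4, in each library.

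Between day 10 and day 4 the difference was called apart in 11 genes (0.079%), with 7 shifted downward and 4 upward. The largest were CXCL5, given above, and CST4, a secreted cystatin, at 36.1 and 53 against 69.4 and 89.7 at day 4 and at 2452 and 2617 against 954.4 and 757.3 at day 10 (−2.41, limma adjusted p = 0.0383). IRAK3, a brake on interleukin-1 receptor signalling, was at 190.2 and 190.2 against 179.7 and 148.4 at day 4 and at 495.6 and 461.8 against 111.5 and 88.0 at day 10 (−2.04, limma adjusted p = 0.0114). SOD2, the mitochondrial superoxide dismutase and an NF-kB target, was at 3122 and 2783 against 2584 and 2131 and then at 11320 and 12730 against 3705 and 2931 (−1.54, limma adjusted p = 0.0163). IRAK3 and SOD2 thus had small differences at day 4, not called, and over 2-fold differences at day 10.

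**Figure D5:**
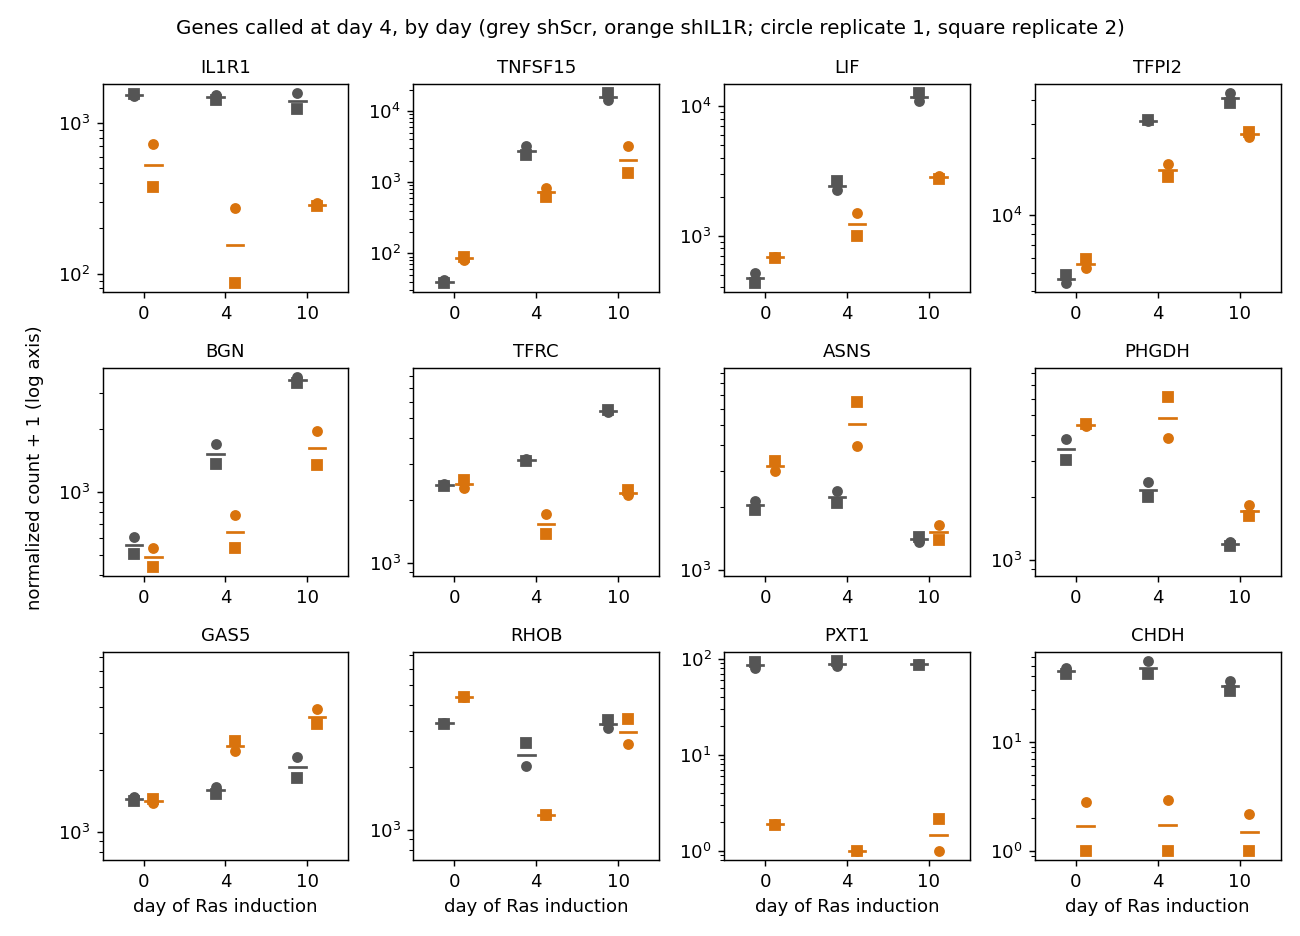
Normalized count plus 1 (log axis) of 12 genes called at day 4, by day of Ras induction (0, 4 and 10). Grey is shScr, orange shIL1R, circles are replicate 1, squares replicate 2, and bars are the geometric means of the 2 libraries. In TNFSF15 and LIF the shIL1R libraries lie above the shScr libraries at day 0 and below them at days 4 and 10, whereas PXT1 and CHDH are near 1 in shIL1R at all days.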

How the data were processed

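The values are normalized counts per gene, a signal that the authors deposited for 12 libraries; the submitters' processing notes name TopHat, HTSeq, DESeq2 and the build hg19. Tool versions, gene annotation and strand handling are not given in the sources used here, so overlapping and antisense genes are uncertain. Dividing by the value of 1 read gave whole numbers within 0.001 for 100% of values, so reads were recovered for count tests.

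A gene entered the tests if 2 or more libraries held 10 or more normalized counts (13924 of 27106). The design was fitted as 6 group means over 12 libraries with limma 3.58.1 in R 4.3.3 on log2(value + 1), with trended eBayes (6 residual and 4.98 prior degrees of freedom), two-sided p-values and Benjamini-Hochberg adjustment per contrast. Genotypes were compared within each day, and these differences between days. The fit was also run on simulated counts in which all libraries had the same spread. The real groups differed in spread, so that run cannot show how reliable the calls are here. Counting error was small beside the spread between libraries: within a group, the chi-square of recovered reads divided by its degrees of freedom was 7.79 to 53.8, and 23.9 (shScr) and 18.8 (shIL1R) at day 4.

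The members and lists were chosen with earlier results of these data known. The rule for names took IL1R1 and HRAS; up to 20 called genes per direction with a mean of at least 50 in the higher group; up to 6 called members per list, or the 2 with the largest change; up to 8 called genes per direction and interaction; and a fixed set of 13 secretory and senescence genes. It gave 124 genes. A further 12 called genes and IL1RAP, MYD88, TRAF6, IRAK2, RELA, ZC3H12A, CSF3, TIMP1, RRM2B, PSAT1, DDIT3, HSPA5, MCM7, TEK and NES were named after their values were seen; 3 called genes enter the counts but are not reported here by name.

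The settings varied were the pseudocount (0.5, 5), the filter (none, 50), TMM rescaling, the replicate number as a block, the compared groups alone, count tests of the recovered reads (edgeR 4.0.16, DESeq2 1.42.0), and each library left out in turn. Promoter sequences came from RefSeq (GRCh38.p14). No set test was run.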

Additional observations from a re-analysis of the deposited data

Results flagged for a closer look

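In 15 genes the limma fit over all 12 libraries called the difference between shIL1R and shScr apart between 2 days. Without a filter 0 of the calls from day 0 to day 4 remained. With the compared groups alone 0 of those from day 4 to day 10 remained. From day 0 to day 4 the log2 difference shifted by −1.04 in TFRC, by −1.12 in TFPI2, by −1.54 in DPP4 and by −1.23 in SLC16A6. From day 4 to day 10 it shifted downward by −5.06 in CXCL5, −2.41 in CST4, −2.04 in IRAK3, −1.75 in LRRC15, −1.54 in SOD2, −1.23 in SLC11A2 and −1.07 in SLC25A37. Over the same days it shifted upward by 1.78 in LIN7A, 1.32 in XRCC4, 1.10 in LYPD1 and 1.01 in LMO7. SLC11A2 and SLC25A37 encode an iron transporter of the endosome and one of mitochondria. At day 4 SLC11A2 was at 1164 and 998.6 normalized counts in shScr and at 1015 and 1259 in shIL1R, and at day 10 at 2488 and 2737 against 1216 and 1116. LYPD1 was at 1720 and 1504 against 1980 and 2143 at day 4 and at 279.7 and 302.8 against 795.0 and 810.4 at day 10. These genes were not called at day 4, with the exception of TFRC and TFPI2.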

How the results depend on the processing

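The counts at day 4 (6 higher, 33 lower) became 0 and 9 without a filter, 5 and 14 with a filter of 50, 0 and 1 with the compared groups alone and 203 and 266 with DESeq2. With the replicate number as a block they were 8 and 26. Deviations of same-numbered libraries correlated over all genes tested at 0.00785 (day 0), −0.0209 (day 4) and −0.098 (day 10), and the numbers were not taken as pairs. These values cannot settle pairing for single genes. In TNFAIP3, NFKBIA, IL1B, IL6, CXCL8 and ICAM1 replicate 2 was below replicate 1 in both genotypes at day 4. At day 0 (4 higher, 5 lower) the higher count was 0 with the groups alone and 94 with DESeq2, and the lower count 3 with a pseudocount of 0.5 or a filter of 50, 2 with the groups alone and 42 with DESeq2. At day 10 the groups alone gave 9 higher and 64 lower. For day 4 against day 0, upward shifts were 1 with the groups alone and 42 with DESeq2, and downward shifts 0 without a filter and 62 with DESeq2. For day 10 against day 4, upward shifts were 0 with the groups alone and 80 with DESeq2, and downward shifts 16 with a pseudocount of 5, 0 with the groups alone and 73 with DESeq2. The cause of these moves was not tested; the groups alone leave fewer libraries, and DESeq2 uses another estimate of the spread.

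Leaving out each library in turn gave 0 to 320 higher and 1 to 421 lower at day 4, 0 to 39 and 1 to 23 at day 0, 51 to 1626 and 64 to 1895 at day 10, 0 to 4 and 0 to 22 for day 4 against day 0, and 0 to 736 and 0 to 673 for day 10 against day 4. None of the 39 called genes changed sign under any alternative run. Among the named genes 2473 values under an alternative kept their direction and side of the threshold, 571 lost a call, 87 gained one and 12 changed sign or, in TLR2, fell to 0. Those 12 belong to genes not called at day 4. With each library left out in turn, TIMP4 ranged from −0.028 to 1.14, FGF18 from −0.24 to 2.5, RSAD2 from −1.61 to 0.073, TLR2 from −1.53 to 0, PDPN from −0.87 to 0.031, CSF1R from −1.17 to 0.066, LRRC15 from −0.086 to 0.13, SLC11A2 from −0.087 to 0.22 and LMNB1 from −0.16 to 0.38. The sign changed without shIL1R day 4 replicate 2 for TIMP4, PDPN, CSF1R, LRRC15, SLC11A2 and LMNB1, without shScr day 4 replicate 2 for FGF18, LRRC15 and SLC11A2 (TLR2 was then 0), without shScr day 4 replicate 1 for LMNB1 and without shIL1R day 4 replicate 1 for RSAD2. With 1 library of a group left out, the other is assumed to vary like the rest. Depth limits the genes near 0: the floor of 3 reads is 3.13 normalized counts in the shIL1R libraries of day 4.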
